A study of Homo sapiens with 8 samples.

Results

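Selenoprotein mRNAs, given as a list of genes, were looked up by their gene symbol in an RNA immunoprecipitation sequencing (RIP-seq) series. The list named GPX1, GPX4, TXNRD1, SEPP1, SEPW1, SEP15, SELK, SELT and SEPHS2, and all 9 were found among the 57756 genes listed. Lysates of 4 human cancer cell lines were incubated with an antibody against the small-subunit ribosomal protein RPS6, and the RNA that came down was sequenced as the RIP library. An aliquot of the same lysate was sequenced as the input library, so each line gave 1 RIP and 1 input library and the series held 8 libraries. The lines were Hep3B from hepatocellular carcinoma, HCT116 from colorectal carcinoma, DU145 from prostate carcinoma and SW1990 from pancreatic carcinoma. The labels gave no treatment, and for the liver line they were at odds, with 3B in the sample titles and Huh7 in the cell line field. No library of a control antibody was analysed here, so binding of RNA to the beads or to the antibody itself was not measured.

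Selenoproteins carry the amino acid selenocysteine, which is inserted at a UGA codon that would otherwise end translation. Insertion needs a stem-loop in the mRNA beyond the coding region, the SECIS element, which is bound by SECISBP2 and brings the elongation factor EEFSEC with its selenocysteine tRNA to the ribosome. Many selenoproteins are redox enzymes, among them glutathione peroxidases and thioredoxin reductases, others reside in the endoplasmic reticulum, and the liver secretes SEPP1 to carry selenium to other tissues.

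The libraries held 35796175 to 54209605 fragments in the inputs and 34630355 to 42610093 in the RIP libraries, as recovered from the scaled counts. All 8 liver marker genes reached 1 FPKM (fragments scaled by transcript length and by library size) in both Hep3B libraries, and at most 4 did in any other library. The colon label of HCT116 was weaker in the data, since CDX2 was the 1 of 5 colon markers above this level there, at 6.25 FPKM in the input, while SW1990 had 3 of 5 and CDX2 at 86.6 FPKM. In SW1990, 5 of 6 markers of pancreatic duct reached it before and 4 after immunoprecipitation, against 2 or 3 in the other lines, although the duct marker KRT19 was higher in the HCT116 input (570.3 FPKM) than in the SW1990 input (229 FPKM). RIP and input libraries of a line were compared within the line, because Hep3B and HCT116 were scaled in a table of their own, apart from DU145 and SW1990.

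Of the 9 selenoprotein mRNAs, 7 were lower in RIP than in input, and none was higher, at an adjusted p under 0.05 (edgeR's quasi-likelihood test with the cell line as a block, Benjamini-Hochberg adjustment over 19921 genes). Of all genes tested, 24.9% were lower and 26.5% were higher by the same rule. The median log2 fold change of RIP over input was -1.81 over the 9 members and -0.05 over all genes tested. SEP15, SEPP1, SELT, SELK, SEPW1 and GPX4 fell by more than 1 on the log2 scale and lay between the percentiles 7.2 and 16.8 of all genes tested. TXNRD1 fell by less, and GPX1 and SEPHS2 did not pass the test. Without the cell line block, 3 members passed, SEP15, SELK and SELT, as 1344 genes in all did in that direction. The edgeR p-values rest on the spread between 4 cell lines, in part pooled over genes by the fit, with no second library of any kind within a line. By an exact sign-flip test of the FPKM log2 ratios, SEP15, SEPP1, SELT, SELK, SEPW1 and GPX4 each gave p = 0.125. That is the smallest p that 4 lines can give. In the same test SEPHS2 gave 0.125 with a mean ratio above 0, TXNRD1 gave 0.625 and GPX1 gave 0.75.

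The 9 members together took 0.205% of the input fragments for Hep3B, 0.210% for HCT116, 0.202% for DU145 and 0.294% for SW1990. In the RIP libraries their share was 0.157%, 0.0715%, 0.0913% and 0.0915% in the same order. The share was lower in RIP than in input in each of the 4 lines, and all 4 RIP libraries lay below all 4 inputs. A share of fragments and a level in FPKM are scaled differently, so medians over all genes are given for both. Over all genes tested, the median log2 ratio of RIP to input in FPKM was 0.004 (SW1990) to 0.08 (Hep3B). The log2 ratio of fragment shares minus that in FPKM had a median of -0.61 (HCT116) to -0.44 (Hep3B). Whether the members' share fell by more than that of other genes was not tested.

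**Figure D1:**
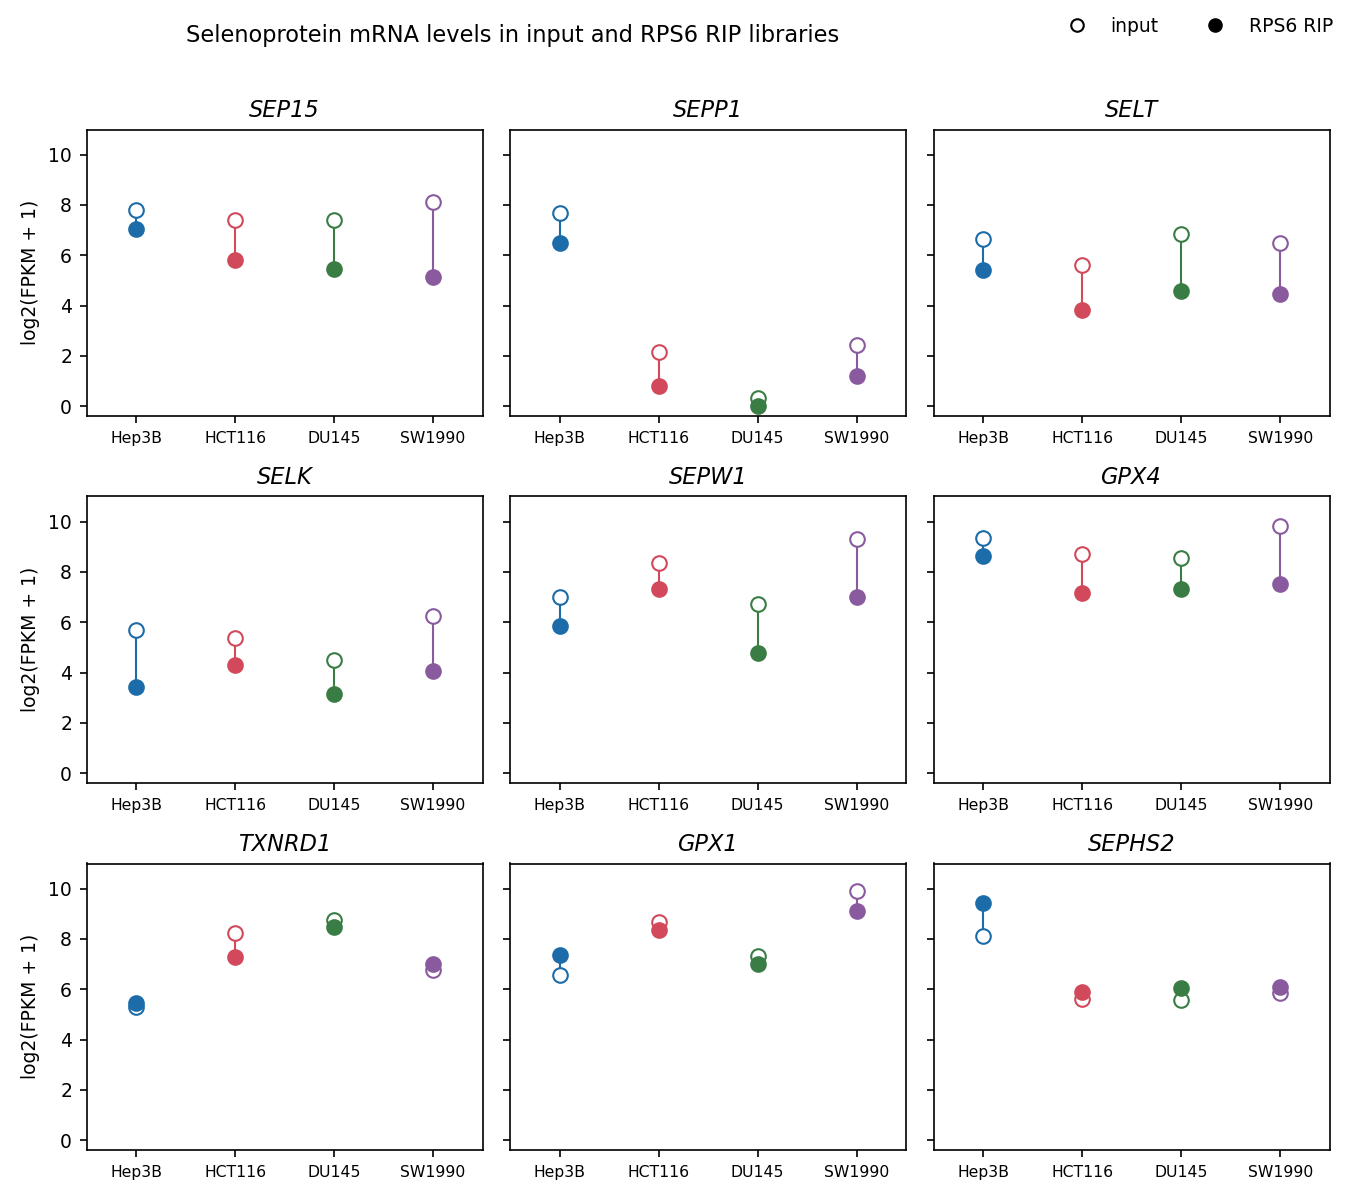
Levels of the 9 selenoprotein mRNAs as log2(FPKM + 1), with open circles for the input and filled circles for the RPS6 RIP library of each cell line, 1 library per circle and a line joining each pair. The filled circle lies below the open one in all 4 lines for 6 of the genes and above it in all 4 for SEPHS2, and the Hep3B circles of SEPP1 and SEPHS2 stand above those of the other lines.

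Promoter sequence is shown for SEPP1 and SEPHS2, the members whose level was highest in Hep3B in both library types, and for SEPW1 for contrast. RefSeq promoter windows on GRCh38.p14, from 250 bases before to 50 bases after an annotated start, were matched to all 9 members through RefSeq symbols and synonyms, and the 100 bases before the start are printed 5′ to 3′ on the gene's strand. Capitals mark TATAAA in SEPP1 and SEPHS2 and CCGCCC in SEPW1. The SEPP1 stretch is chr5:42811893-42811992 on the minus strand, that of SEPHS2 is chr16:30445875-30445974 on the minus strand, and that of SEPW1 is chr19:47778603-47778702 on the plus strand.
SEPP1: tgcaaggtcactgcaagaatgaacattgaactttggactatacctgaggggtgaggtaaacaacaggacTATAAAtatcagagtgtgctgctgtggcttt
SEPHS2: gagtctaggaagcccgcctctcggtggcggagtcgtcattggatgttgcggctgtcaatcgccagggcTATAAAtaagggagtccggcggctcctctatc
SEPW1: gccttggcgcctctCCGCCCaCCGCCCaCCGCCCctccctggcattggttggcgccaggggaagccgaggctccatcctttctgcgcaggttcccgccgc

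TATAAA began 31 bases before the start of SEPP1 and 32 bases before that of SEPHS2, and was on neither strand in the windows of the other 7 members. Of the 35116 promoter windows of full length, 7.33% held TATAAA on the gene's strand and 11.5% held it on either strand. CCGCCC was found on either strand in the windows of 7 members, all but SEPP1 and SEPHS2, and in 45.0% of all windows. CCAAT, searched on both strands, was found in 6 members and in 34.6% of all windows, and none of these motifs contains another. Members were counted by gene over all their windows and the shares by single window. GPX4, TXNRD1 and SEP15 had several windows and so more chances to match. GC content of the printed stretch was 43.0% in SEPP1, 59.0% in SEPHS2 and 73.0% in SEPW1. The motifs were searched after the levels were known, and a match describes letters in a window, not a used site.

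SEP15, SELK and SELT encode selenoproteins of the endoplasmic reticulum, and their RIP and input levels did not overlap in FPKM. Hep3B and HCT116 were scaled apart from DU145 and SW1990, so this gap also crosses separate scalings. It was not particular to these genes. The nuclear selenoprotein C11orf31 had its lowest input at 48.2 FPKM and its highest RIP level at 30.5 FPKM, and VIMP at 18.2 and 15.5 FPKM. SELM, also of the endoplasmic reticulum, overlapped, with 24.6 FPKM in the SW1990 input and 159.9 FPKM in the Hep3B RIP library. How common such a gap was among all genes tested was not examined. SEP15 (ENSG00000183291, hg19 chr1:87328131-87380107) encodes a protein that binds a folding sensor of glycoproteins. Its input level was 223 FPKM for Hep3B, 169 for HCT116, 169.9 for DU145 and 278 for SW1990, against 130.3, 54.5, 42.5 and 34.0 FPKM in the RIP libraries. The inputs were within 1.65-fold of each other, whereas the RIP libraries ran from Hep3B at the top to SW1990 at the bottom, the line with the highest input. The ratio of input to RIP was thus 1.71 in Hep3B and 8.18 in SW1990 on the FPKM scale. SEP15 changed by -2.28 ± 0.29 on the log2 scale (standard error, edgeR adjusted p = 0.000106).

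SELK (ENSG00000113811, hg19 chr3:53918436-53926015) encodes a small membrane protein linked to palmitoylation and to degradation of misfolded proteins. Its input level was 50.7 FPKM for Hep3B, 40.8 for HCT116, 21.7 for DU145 and 74.8 for SW1990, and its RIP level was 9.80, 18.7, 7.77 and 15.8 FPKM. Every RIP library lay below every input, and Hep3B, below SW1990 alone among the inputs, was below HCT116 and SW1990 among the RIP libraries. The log2 fold change of SELK was -1.99 ± 0.26 (standard error, edgeR adjusted p = 0.00011).

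SELT (ENSG00000198843, hg19 chr3:150259780-150348222) encodes a thioredoxin-like oxidoreductase. The SELT inputs held 99.2 FPKM for Hep3B, 47.4 for HCT116, 113 for DU145 and 88.6 for SW1990, and the RIP libraries 41.6, 13.0, 23.2 and 21.1 FPKM. The highest RIP library, Hep3B, was below the lowest input, HCT116. SELT fell by 2.24 on the log2 scale with a standard error of 0.22 (edgeR adjusted p = 2.21e-05). The files give SELT the same locus as SERP1, EIF2A and RP11-392O18.2, so how reads were divided among these genes is uncertain.

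SEPP1, the secreted selenium carrier (ENSG00000250722, hg19 chr5:42756902-42887494), was the member whose level differed most between the lines. Its input level was 204 FPKM for Hep3B, 3.49 for HCT116, 0.260 for DU145 and 4.39 for SW1990, and its RIP level was 88.8, 0.752, 0 and 1.31 FPKM. Hep3B was 46.6-fold above SW1990, the next input, and 67.7-fold above it among the RIP libraries. These levels rested on 10640 and 2135 fragments in the Hep3B pair, 222 and 28 in HCT116, 310 and 62 in SW1990, and 21 fragments against 0 in DU145. In counts scaled by library size alone (CPM), the DU145 input stood at 0.387 with an exact 95% interval of 0.240 to 0.592, and a count of 0 in its RIP library allows up to 0.0816 by a floor of 3 fragments. The low end of that interval was 2.94-fold above this floor. The exact 95% interval of the DU145 RIP library reached above the floor, so the smallest fold by matching limits is below 2.94. The exact intervals of the DU145 input and RIP libraries did not overlap, which covers counting error only. SEPP1 fell by 2.26 on the log2 scale with a standard error of 0.29 (edgeR adjusted p = 0.000109), and all 4 pairs ran downward. The 8 liver markers were likewise highest in Hep3B, with a summed level of 15724 FPKM in its input and at most 1.32 FPKM in the other inputs, and their part in the SEPP1 levels was not tested. The SEPP1 locus is shared with CCDC152 and CTD-2325A15.5, so the split of reads is uncertain there too.

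SEPW1 (ENSG00000178980, hg19 chr19:48281828-48287943) encodes a small glutathione-binding selenoprotein of the cytosol. The input level of SEPW1 was 127 FPKM for Hep3B, 325 for HCT116, 106 for DU145 and 636 for SW1990, and its RIP level was 57.5, 161, 26.6 and 126 FPKM. Each RIP library was below its own input, but the HCT116 RIP level exceeded the inputs of Hep3B and DU145. The log2 fold change was -1.81 ± 0.27 (standard error, edgeR adjusted p = 0.000282).

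The glutathione peroxidase mRNAs GPX4 and GPX1 gave unlike values. GPX4 (ENSG00000167468, hg19 chr19:1103935-1106787) encodes the enzyme that reduces lipid hydroperoxides in membranes and protects cells from ferroptosis. Its input level was 647 FPKM for Hep3B, 421 for HCT116, 375 for DU145 and 914 for SW1990, against 391, 143, 157 and 183 FPKM in RIP. GPX4 was lower in RIP in each line, by 1.65-fold in Hep3B up to 4.99-fold in SW1990, and the Hep3B RIP level lay just above the DU145 input. Its log2 fold change was -1.54 ± 0.28 (standard error, edgeR adjusted p = 0.00101).

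GPX1 (ENSG00000233276, hg19 chr3:49394608-49396033) encodes the abundant cytosolic glutathione peroxidase that removes hydrogen peroxide. The input level of GPX1 was 92.6 FPKM for Hep3B, 408 for HCT116, 159 for DU145 and 963 for SW1990, and its RIP level was 164, 324, 126 and 549 FPKM. Hep3B was the 1 line with the RIP library above its input, and the levels of both library types overlapped. The log2 fold change of GPX1 over the 4 lines was -0.06 ± 0.28 (standard error, edgeR adjusted p = 0.875). Without the Hep3B pair it was -0.50 and without the SW1990 pair 0.18, and neither passed the test. The near-identical pseudogenes GPX1P1 and GPX1P2 were listed at 1.32 to 36.2 FPKM and 0.150 to 1.45 FPKM, so the counts of GPX1 depend on how shared reads were placed.

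TXNRD1 (ENSG00000198431, hg19 chr12:104609556-104744061) encodes cytosolic thioredoxin reductase, which keeps thioredoxin reduced. Its input level was 37.8 FPKM for Hep3B, 299 for HCT116, 429 for DU145 and 108 for SW1990, and its RIP level was 42.7, 156, 358 and 128 FPKM. The order of the lines was the same in both library types, from DU145 down to Hep3B. On the FPKM scale TXNRD1 was lower in RIP in HCT116 and DU145 and higher in Hep3B and SW1990, and after centring each line on its protein-coding genes it was lower in all 4. In CPM, which is not divided by transcript length, the log2 ratio was negative in all 4 lines, from -1.69 in HCT116 to -0.66 in SW1990. Over all genes tested, the CPM ratio minus the FPKM ratio had a median of -0.61 to -0.44 by line. A negative sign in CPM alone therefore does not set TXNRD1 apart. The edgeR fit on counts gave -0.63 ± 0.22 on the log2 scale (standard error, adjusted p = 0.0345). The limma fit on log2(FPKM + 1) gave -0.20 (adjusted p = 0.534). The call was also lost without the HCT116 pair (edgeR adjusted p = 0.162) and without the DU145 pair (edgeR adjusted p = 0.0864). EID3, RP11-818F20.5 and the ribosomal protein pseudogene RPL18AP3 share the TXNRD1 locus.

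SEPHS2 (ENSG00000179918, hg19 chr16:30454951-30457502) encodes the selenophosphate synthetase that makes the selenium donor for selenocysteine and is itself a selenoprotein. SEPHS2 was at 275 FPKM in the Hep3B input against 47.6 in HCT116, 46.6 in DU145 and 57.4 in SW1990, and at 683, 58.9, 65.8 and 66.5 FPKM in the RIP libraries. It was the 1 member above its input in every line on the FPKM scale, and Hep3B stood 4.79-fold above the next input and 10.3-fold above the next RIP library. The mean log2 ratio on the FPKM scale was 0.58 ± 0.50 (SD, n = 4), with an exact two-sided sign-flip p of 0.125, the smallest that 4 lines can give. Centred on the median of protein-coding genes in each line, the mean was 0.28 (exact sign-flip p = 0.375) and SW1990 turned to -0.09, and without the Hep3B pair the uncentred mean was 0.33. In CPM, with the shift against FPKM given for TXNRD1, the log2 ratio was 0.63 in Hep3B and between -0.58 and -0.01 in the other lines. The edgeR estimate on counts was 0.27 ± 0.22 (standard error, adjusted p = 0.330), and it was -0.01 without the Hep3B pair.

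**Figure D2:**
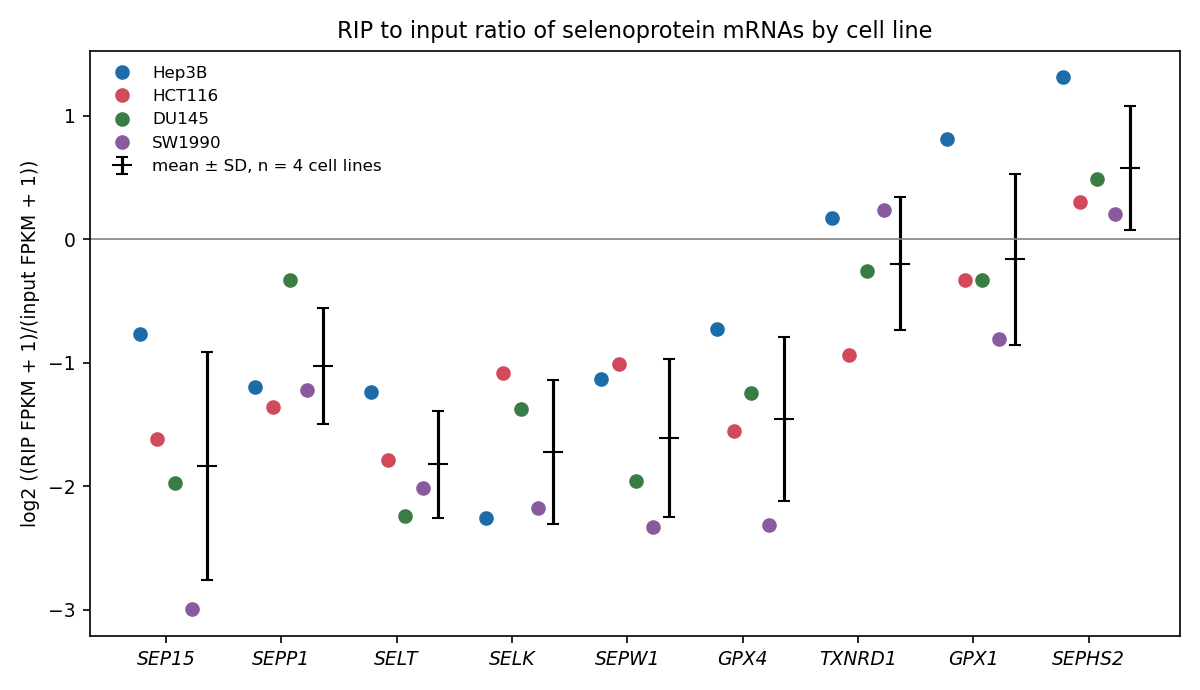
The log2 ratio of RIP to input, as log2((RIP FPKM + 1)/(input FPKM + 1)), for each member and cell line, with the mean and SD over 4 lines in black beside the points. For 6 members all 4 points lie below 0 and for SEPHS2 all 4 lie above, while GPX1 and TXNRD1 have points on both sides.

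The log2 ratio in CPM minus that in FPKM had a median over all genes tested of -0.61 to -0.44 by line. With the counts as deposited in place of CPM, this difference was -0.24 to -0.11, so a part of it lay in how the libraries were scaled, and how much lay in transcript length was not tested. SEP15 differed by -0.92 to -0.64 with CPM and by -0.64 to -0.30 with the deposited counts. GPX1 differed by -0.49 to -0.01 with CPM and by -0.01 to 0.19 with the deposited counts. Among the 9 members, CPM and FPKM gave ratios of opposite sign within a line for TXNRD1 in Hep3B and SW1990 and for SEPHS2 in HCT116, DU145 and SW1990.

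The lines did not keep 1 order across members. Among inputs, SW1990 had the highest FPKM of GPX1, GPX4, SEPW1, SEP15 and SELK, Hep3B that of SEPP1 and SEPHS2, and DU145 that of TXNRD1 and SELT. Among RIP libraries, Hep3B had the highest level of GPX4, SEP15, SELT, SEPP1 and SEPHS2. Input levels spanned 1.65-fold for SEP15, 2.40-fold for SELT, 2.44-fold for GPX4 and 10.4-fold to 11.3-fold for GPX1 and TXNRD1. Each line gave 1 input, so no difference between lines was tested, a larger share of cells holding an mRNA and more of it per cell cannot be told apart in bulk RNA, and levels of Hep3B or HCT116 against DU145 or SW1990 also cross the separately scaled tables. Within a library GPX4 was the most abundant member per length in the Hep3B and HCT116 inputs, TXNRD1 in DU145 and GPX1 in SW1990.

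A further 16 selenoprotein genes were listed, of which 12 passed the minimum of 10 counts on average. Of these, 2 were higher and 4 were lower in RIP, with a median log2 fold change of 0.05, beside 26.5% higher and 24.9% lower over all genes. The lower ones were C11orf31 (-2.16 ± 0.23), VIMP (-1.87 ± 0.24), EPT1 (-1.82 ± 0.19) and SELM (-1.37 ± 0.35), given as log2 fold change with its standard error. C11orf31 encodes the nuclear SELH, VIMP the membrane protein SELS of endoplasmic reticulum degradation, EPT1 an ethanolaminephosphotransferase and SELM a thioredoxin-like protein of the endoplasmic reticulum. SELO, a mitochondrial pseudokinase that transfers AMP, rose by 1.73 ± 0.26, from 9.01 to 53.4 FPKM in HCT116 and from 10.8 to 16.8 FPKM in Hep3B. TXNRD2, the mitochondrial thioredoxin reductase, rose by 1.45 ± 0.21 (edgeR adjusted p = 0.00024), in contrast to its cytosolic relative TXNRD1. A difference between TXNRD1 and TXNRD2, or between the members and these genes, was not tested. SEPN1, an endoplasmic reticulum selenoprotein linked to muscle disease, stood at 0.46 ± 0.18 (edgeR adjusted p = 0.0604).

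All 12 genes of the selenocysteine machinery were tested, and 3 were higher and 6 lower in RIP, beside 26.5% higher and 24.9% lower over all genes. Calls in both directions were thus not particular to this list, whose median log2 fold change was -0.44. Without the cell line block 0 were higher and 0 lower, and with Hep3B and HCT116 alone 1 was higher and 1 lower. EEFSEC, the elongation factor that delivers the selenocysteine tRNA, rose by 1.81 ± 0.21 (edgeR adjusted p = 6.42e-05), from 3.28 to 10.1 FPKM in Hep3B, from 6.38 to 15.6 in HCT116, from 1.72 to 8.02 in DU145 and from 7.66 to 37.0 in SW1990. LRP8, a receptor that takes up SEPP1, rose by 1.13 ± 0.19, and SCLY, which releases selenium from selenocysteine, by 0.60 ± 0.19. PSTK and SEPSECS, which act in turn on the serine carried by the selenocysteine tRNA, had log2 fold changes of -1.53 ± 0.39 and -1.17 ± 0.24. ALKBH8, a tRNA wobble methyltransferase, fell by 1.20, RPL30, a ribosomal protein that also binds the SECIS element, by 0.88, TRNAU1AP, a partner of the tRNA, by 0.72 and SECISBP2L by 0.69. SECISBP2, SEPHS1 and TRIT1 did not pass the test, with log2 fold changes between -0.18 and -0.0046.

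**Figure D3:**
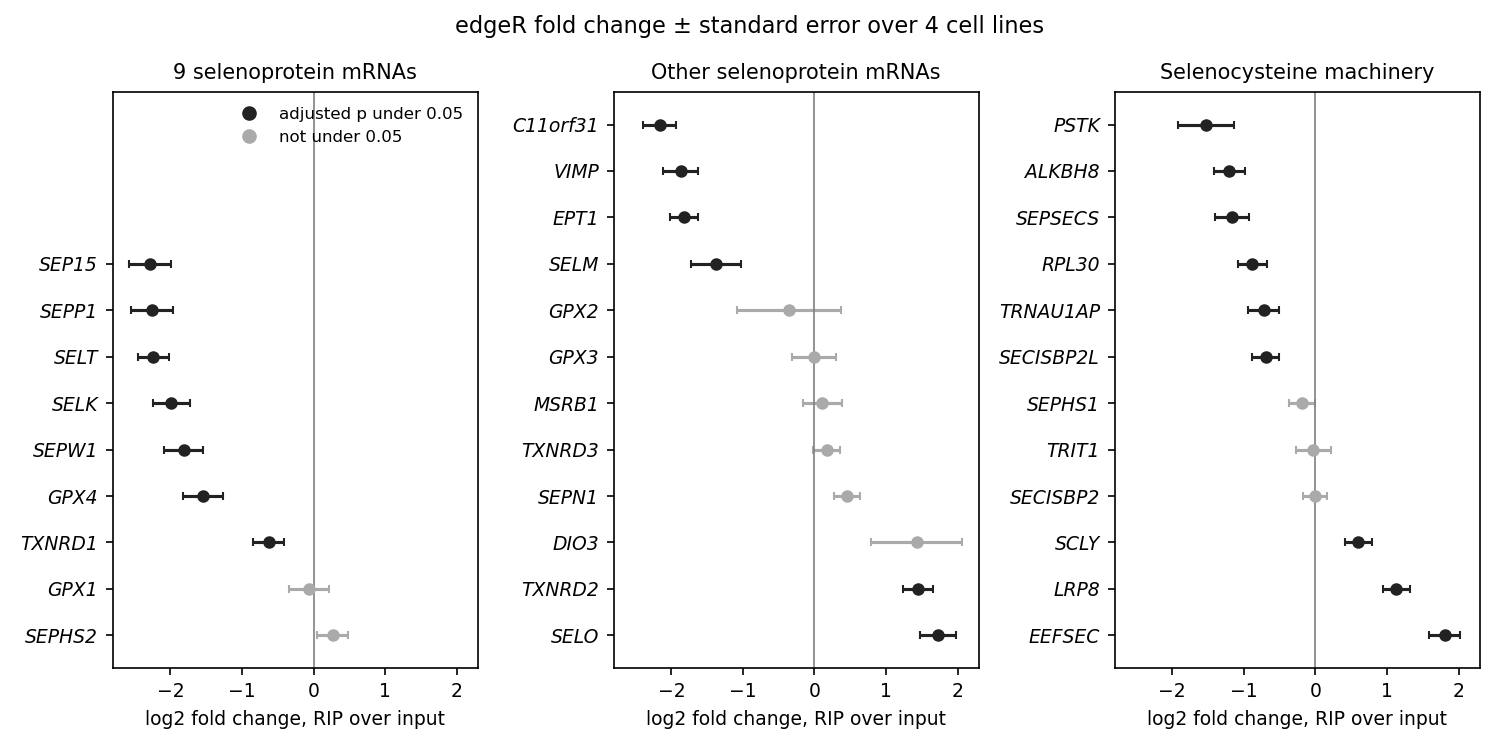
Log2 fold change of RIP over input with its standard error from edgeR, for the 9 members, the 12 other selenoprotein mRNAs tested and the 12 genes of the selenocysteine machinery, with black for an adjusted p under 0.05 and grey otherwise. In the first panel 7 members are black and left of 0, while both other lists hold black points on either side.

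Redox genes that use cysteine in place of selenocysteine, or that supply glutathione and thioredoxin, were examined as a further list. Of 23 genes, 22 were tested, 2 were higher and 10 were lower in RIP, beside 26.5% and 24.9% over all genes, and the median log2 fold change was -0.56. The count of lower genes was 5 by limma on log2(FPKM + 1) and 1 without the cell line block. The lowest were GPX8 (-2.33), a glutathione peroxidase of the endoplasmic reticulum without selenocysteine, TXN (-1.62), thioredoxin itself, and GLRX2 (-1.55), a mitochondrial glutaredoxin. The highest past the threshold were GSS (1.02), which makes glutathione, PRDX2 (0.80), a peroxiredoxin, and, below 0, GLRX3 (-0.52).

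Most of the members had short transcripts, and short transcripts were lower in RIP over all genes. The length that the files imply was taken as the ratio of CPM to FPKM in the inputs, which also carries the scaling of the libraries. By this length, 5 members were under 1 kb (GPX1, GPX4, SEPW1, SEP15 and SELK). SEPP1 and SELT were between 1 and 2 kb, and TXNRD1 and SEPHS2 between 2 and 4 kb. The RIP libraries implied shorter lengths, with a median log2 ratio to the input length of -0.50 over 19897 genes. This ratio was -0.75 for SEPP1, -0.65 for SELT, -0.69 for TXNRD1 and -0.64 for SEPHS2. By the RIP lengths each of these members would fall in the next shorter class. Of the 4349 genes tested under 1 kb, 29.9% were lower in RIP, with a median log2 fold change of -0.69, and 4 of the 5 members of this class were lower. From 1 to 2 kb, 27.5% were lower with a median of -0.16, and both members were. From 2 to 4 kb, 23.8% were lower with a median of 0.13, and TXNRD1 was. Over 4 kb, where no member lay, the median was 0.55 and 15.8% were lower. Within protein-coding genes under 1 kb, 42.5% were lower. These classes were set after the data had been seen, and the part of length in the members' values was not tested.

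**Figure D4:**
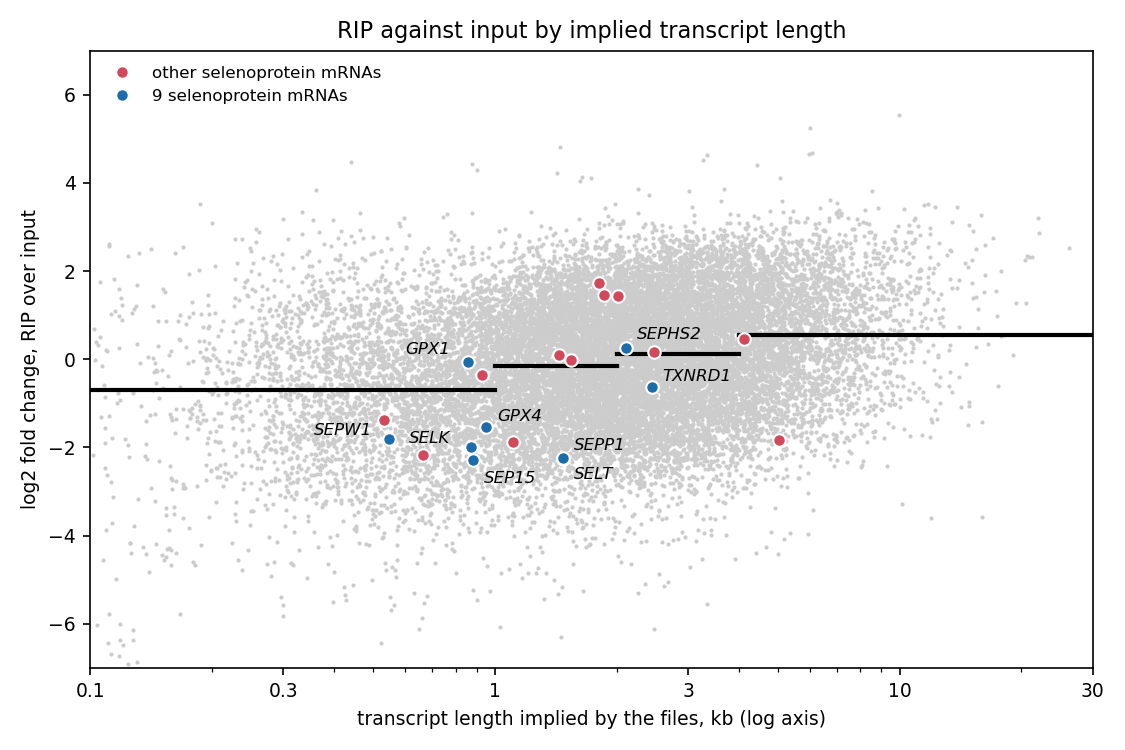
Log2 fold change of RIP over input against the transcript length implied by the input libraries, for 19805 genes in grey (another 116 lie outside the axes), the 9 members in blue and the other selenoprotein mRNAs tested in red, with black bars for the median of all genes in each of 4 length classes. The points of all members but GPX1 and SEPHS2 lie below the bar of their class, with the points of SEPP1 and SELT on top of each other. GPX1 and SEPHS2 lie above theirs.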

How the data were processed

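The authors sequenced RIP and input libraries from a stranded total RNA kit, and per the labels' processing notes reads passed CASAVA 1.8 and were mapped with TopHat2 2.0.9 on hg19. Per gene, the deposited tables hold FPKM and an estimated count, both made by the authors and scaled within each of 2 tables. Whether counting used strand, and how it divided shared reads, is not given in the sources used here. The deposited columns of the authors' own fold changes and p-values were not used. The counts were not whole reads but scaled by 1 step per library, and dividing by that step gave whole fragments for 89.9% to 92.6% of values within 0.02.

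The estimated counts were rounded and tested with edgeR 4.0.16 (TMM, quasi-likelihood, cell line as a block) in R 4.3.3 over genes averaging 10 counts or more, with a Benjamini-Hochberg threshold of 0.05. RIP and input of a line share a lysate, and their deviations from the group means correlated at 0.799 to 0.871, against at most -0.015 across lines. Deviations from a mean over 4 lines sum to 0, which pushes the values across lines below 0. These correlations pair the libraries by cell line and cannot tell a shared lysate from a shared line. Ratios of single members used log2(FPKM + 1) and an exact sign-flip test. DESeq2 1.42.0, limma 3.58.1 on log2(FPKM), other filters, another centring, omitted pairs, the recovered fragments and, added after seeing the data, fits within each table and classes of transcript length were alternatives. The fits were tested on simulated data, where the share of false calls was above the threshold for DESeq2, and for edgeR with dispersions estimated gene by gene but not with smoothed ones. Scripts ran in Python 3.11.15 with pandas 2.3.3 and SciPy 1.17.1. The members, lists and tests were chosen with earlier results of these data known. All 9 members, every other selenoprotein or machinery gene past the threshold, and the 3 highest and 3 lowest redox genes past it were named. SEPN1 was named after its values were seen. Promoter sequences came from RefSeq (GRCh38.p14). A planned class of genes with short proteins was not run, as no protein sequences were used here. The marker check of DU145 is not reported here.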

Additional observations from a re-analysis of the deposited data

Results flagged for a closer look

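With 4 samples a group, a highest or lowest value that stands far from the rest by Dixon's test is marked. Chance marks about 1 in 20 groups. Each of the 9 members was searched in the inputs, in the RIP libraries and in their ratio, so chance alone can give some marks. The SEPP1 log2 ratio of RIP to input on the log2(FPKM + 1) scale was -0.33 in DU145, the highest of the 4 lines, with the next at -1.19. It came from 21 input fragments against 0 after immunoprecipitation, where the added 1 FPKM exceeds the level itself. SEPHS2 in Hep3B stood apart from the other lines in both library types, which are a pair, so these marks are not independent. Its log2(FPKM + 1) was 8.11 in the Hep3B input with the next input at 5.87, and 9.42 in the Hep3B RIP library with the next RIP library at 6.08. All 8 liver markers were at or above 1 FPKM in both Hep3B libraries, and their part in the SEPHS2 levels was not tested.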

How the results depend on the processing

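SEP15, SELK and SELT kept their direction and stayed past the threshold under each of the 14 alternatives run. Without the replicate block, 1427 genes were higher and 1344 lower in RIP, 3 members were lower, with GPX4 (adjusted p = 0.074), SEPW1 (0.138), SEPP1 (0.646) and TXNRD1 (0.663) lost, 1 other selenoprotein was higher, 0 machinery genes were higher and 0 lower (unadjusted p under 0.05 for 1 and 2), and 1 redox gene was higher and 1 lower. Within the table of Hep3B and HCT116, 3293 genes were higher and 3292 lower, 1 machinery gene was higher and 1 lower, and 1 redox gene was higher and 4 lower. Within the table of DU145 and SW1990, 1 redox gene was higher. The limma fits gave 5 lower redox genes with either pseudocount, and 3264 lower genes in all with 0.1 FPKM added. TXNRD1 was not past the threshold in either table. Leaving out 1 pair gave 6 to 7 lower members, 1 to 2 higher redox genes, mean log2 ratios of -0.49 to 0.0523 for GPX1 and -0.34 to 0.0483 for TXNRD1, and edgeR log2 fold changes of -0.50 to 0.18 for GPX1 and -0.0132 to 0.39 for SEPHS2. GPX1 was at 0.0433 without HCT116, 0.18 without SW1990 and 0.28 within the table of Hep3B and HCT116. SEPN1 passed in DESeq2 alone (adjusted p = 0.0105), the tool with the most false calls in simulated data. The cause of these changes was not tested. A class of short protein genes was planned and not run. Depth limits SEPP1 outside Hep3B, where the pairs held 21 to 310 input fragments.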
